A study of Mus musculus with 9 samples.

Results

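The keratin genes Krt5, Krt7, Krt8, Krt13, Krt14, Krt18, Krt19 and Krt20 were followed across adipose-derived stem cells (ASCs) of 3 mouse fat depots. They were found by gene name in a table of read counts, in which they are 8 of 54532 genes. The cells came from C57BL/6 mice and were isolated from fat of the subcutaneous depot (Sub-ASC), the abdomen (Ab-ASC) and the surroundings of vessels (PVASC) and grown in a serum medium with leukemia inhibitory factor and fibroblast growth factor. None of the groups carried a transgene or received a treatment, and each had 3 bulk RNA libraries, 9 in all. The tissue was digested with collagenase and Dispase and the cells were plated without a stated sort, so the libraries can hold every cell type that attached and grew. PVASCs were also stained for surface markers and read by flow cytometry, a step that is not described as a selection of the cells. The age and sex of the donor mice are not given, and whether the replicates came from separate animals is not stated, so the p-values measure the spread between these libraries only.

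Keratins are the intermediate filament proteins of epithelial cells. A keratin filament is built from pairs of an acidic type I and a basic type II keratin, and a keratin without a partner of the other type is usually degraded. Krt8 (type II) and Krt18 (type I) form the pair of simple, single-layered epithelia. Krt7 (type II) and Krt19 (type I) accompany them in ducts and in the mesothelium, the lining of the body cavities that also covers visceral fat. Krt20 (type I) is known from intestinal and urothelial surface cells and Krt13 (type I) from stratified mucosa. Krt5 (type II) and Krt14 (type I) form the pair of the basal layer of stratified epithelia. Stromal cells such as ASCs build their filaments mainly from vimentin.

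The type I genes Krt13, Krt14, Krt19 and Krt20 lie on the minus strand of chromosome 11 and the type II genes Krt5, Krt7 and Krt8 on chromosome 15, where Krt18 is the only type I gene. All 8 have the start and end in the file that GENCODE M21 gives on GRCm38. Krt8 (ENSMUSG00000049382, 101996698 to 102004482, minus strand) and Krt18 (ENSMUSG00000023043, 102028180 to 102032027, plus strand) are neighbours that point away from each other with 23.7 kb between them. Krt13 (100117327 to 100121566) and Krt19 (100140810 to 100148665) are 19.2 kb apart with the keratin gene Krt15 between them. Krt20 (99428403 to 99438150) lies 679 kb from Krt13, with 10 keratin genes in between.

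The promoters of 5 of these genes are shown because their read counts part the depots and because neighbours and partners among them did not share a pattern. The sequences are RefSeq windows on GRCm38.p6, with 250 bases before and 50 after the transcription start, written 5′ to 3′ on the strand of the gene. RefSeq windows were matched for 7 of the 8 genes, and Krt19 had no entry. Krt13 has 2 windows, and the one at the listed gene start is shown. The window of Krt7 lies inside the listed gene, downstream of its listed start. Capitals mark the letters of 6 motifs, searched on both strands, which are the TATA box (TATAAA), the CCAAT box by its name, the GC box (GGGCGG) and the motifs of AP-1 (TGANTCA), AP-2 (GCCNNNGGC) and TEAD (GGAATG).
Krt8, chr15:102004293-102004592, minus strand: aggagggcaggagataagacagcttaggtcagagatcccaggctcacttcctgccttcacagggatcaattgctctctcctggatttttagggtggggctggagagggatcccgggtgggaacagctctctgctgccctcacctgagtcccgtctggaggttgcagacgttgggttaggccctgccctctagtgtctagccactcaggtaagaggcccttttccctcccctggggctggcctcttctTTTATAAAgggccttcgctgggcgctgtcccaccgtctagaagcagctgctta
Krt18, chr15:102027966-102028265, plus strand: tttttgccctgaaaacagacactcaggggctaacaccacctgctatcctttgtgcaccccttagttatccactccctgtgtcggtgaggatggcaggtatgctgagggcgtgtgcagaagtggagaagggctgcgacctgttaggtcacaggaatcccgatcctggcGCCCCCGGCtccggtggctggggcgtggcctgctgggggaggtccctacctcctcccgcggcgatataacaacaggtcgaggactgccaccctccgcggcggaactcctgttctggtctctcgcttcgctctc
Krt7, chr15:101412153-101412452, plus strand: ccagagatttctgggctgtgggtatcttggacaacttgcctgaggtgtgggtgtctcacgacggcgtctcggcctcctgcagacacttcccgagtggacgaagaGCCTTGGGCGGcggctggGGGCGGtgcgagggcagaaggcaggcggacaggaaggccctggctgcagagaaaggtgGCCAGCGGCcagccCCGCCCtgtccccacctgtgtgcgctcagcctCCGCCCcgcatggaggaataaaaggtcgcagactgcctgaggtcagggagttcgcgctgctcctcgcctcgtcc
Krt20, chr11:99438104-99438403, minus strand: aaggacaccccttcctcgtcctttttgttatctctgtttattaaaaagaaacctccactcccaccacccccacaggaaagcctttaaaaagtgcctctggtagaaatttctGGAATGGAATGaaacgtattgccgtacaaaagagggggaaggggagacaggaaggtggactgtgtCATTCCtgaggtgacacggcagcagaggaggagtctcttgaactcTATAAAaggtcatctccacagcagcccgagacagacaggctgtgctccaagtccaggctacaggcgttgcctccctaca
Krt13, chr11:100121517-100121816, minus strand: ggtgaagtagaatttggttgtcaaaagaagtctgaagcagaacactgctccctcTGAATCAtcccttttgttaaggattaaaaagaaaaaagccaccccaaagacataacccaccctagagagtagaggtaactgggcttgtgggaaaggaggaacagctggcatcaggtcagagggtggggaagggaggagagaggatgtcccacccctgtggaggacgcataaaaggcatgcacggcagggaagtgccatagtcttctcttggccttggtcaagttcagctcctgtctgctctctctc

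No motif of the 6 was found in all 5 windows. TATAAA stood in the windows of Krt8 and Krt20 and is held by 13.6% of all 32851 promoter windows. The Krt8 window had it on both strands, in overlapping letters that cross the annotated start. GGGCGG stood 4 times in the Krt7 window, against 35.7% of all windows with at least 1 match. GCCNNNGGC was found in the windows of Krt7, where 1 match overlaps a GGGCGG, and Krt18 (16.6% of all windows). Krt20 had 3 matches to GGAATG (14.7% of all windows) and Krt13 had 1 to TGANTCA (7.81% of all windows). The CCAAT box, held by 37.4% of all windows, was in none of the 5. The Krt13 window that is not shown held a CCAAT box at position -240 from its start site and matches to TGANTCA at -183 and -34. The windows of the neighbours Krt8 and Krt18 shared no motif of the 6. GC content was 66.3% in the Krt7 window, 61.3% in that of Krt18 and 58.0% in that of Krt8, 50.3% in that of Krt13 and 50% in that of Krt20, against a median of 52.7% over all windows. The matches describe the letters of these windows only.

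Between 20524173 and 29881036 reads were counted per library. Read counts are given below per 1e6 reads as CPM, after scaling of library sizes by the TMM method, and 3 reads correspond to 0.0917 to 0.161 CPM, which covers counting error only. No library pair within a group agreed within sampling noise, and Ab-ASC replicate 1 differed most from its group. All 12 stromal markers listed were above 1 CPM in every group mean, and they summed to 1810 to 4990 FPKM (reads per kilobase of listed gene length and 1e6 counted reads) in the 9 libraries. Their levels differed between groups in both directions. Ly6a (Sca1) was at 2050 CPM in Sub-ASCs, 21.8 CPM in Ab-ASCs and 111 CPM in PVASCs. In the same order Thy1 (CD90) was at 332, 231 and 883 CPM and Eng (endoglin) at 108, 145 and 328 CPM.

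The summed level of the keratin genes was lowest in Sub-ASCs, and the genes that were present differed in kind between the other groups. Ab-ASCs held mainly Krt8 and Krt18, with less Krt19 and Krt7, whereas PVASCs held Krt19, Krt18, Krt20 and Krt13 with very little Krt8 or Krt7. Of the 8 genes, 6 had enough reads to be tested, and Krt5 and Krt14 did not. Krt7 and Krt8 reached the count limit through Ab-ASCs alone, Krt13 through PVASCs alone, and Krt18 and Krt20 through both of these groups but not Sub-ASCs, so the counts of calls below are descriptions. Against Sub-ASCs, 4 keratins (Krt13, Krt18, Krt19 and Krt20) were higher in PVASCs and none was lower. Of the 16526 genes tested, 70.4% were called in this comparison, 34.7% as higher and 35.7% as lower. In Ab-ASCs 5 keratins (Krt7, Krt8, Krt18, Krt19 and Krt20) were above Sub-ASCs and none was below, where 75.3% of genes were called, 37% as higher and 38.3% as lower. Between PVASCs and Ab-ASCs all 6 were called, 3 higher and 3 lower in PVASCs, where 56.9% of genes were called, 24.7% as higher and 32.1% as lower. Among the 6 tested keratins, the same ones were those whose CPM did not overlap between groups, which were 4 for PVASCs against Sub-ASCs (77.3% of genes tested), 6 for PVASCs against Ab-ASCs (63.9%) and 5 for Ab-ASCs against Sub-ASCs (76.5%). Krt14, which was not tested, did not overlap between Ab-ASCs and either other group. The comparisons share libraries, since each group enters 2 of them. Any difference among the groups was called for all 6, as for 84.6% of genes tested, so a call alone says little about keratins and the sizes and directions are given gene by gene.

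**Figure D1:**
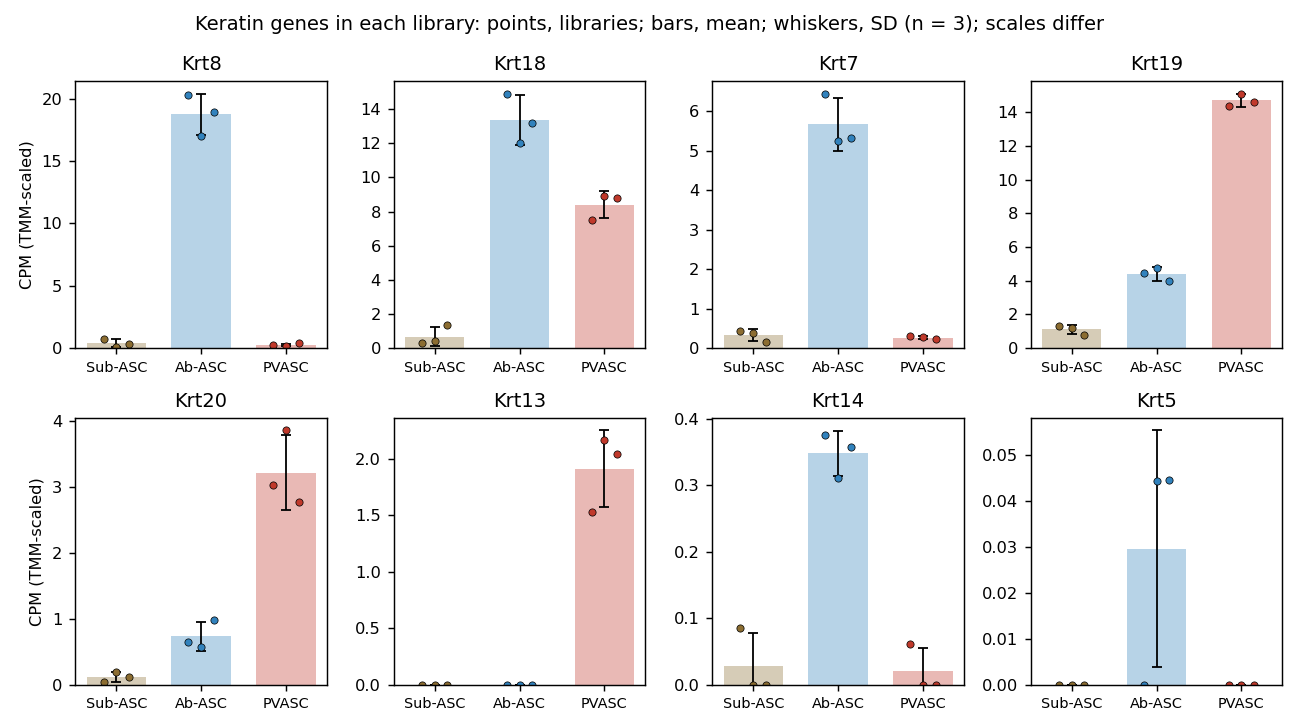
TMM-scaled CPM of each keratin gene (vertical axis, linear, a separate scale per panel) in the 3 libraries of each group, with bars at the mean and whiskers of 1 SD. Krt8 and Krt7 stand up in Ab-ASCs alone (18.8 and 5.66 CPM), Krt18 in Ab-ASCs and PVASCs (13.4 and 8.40 CPM), and Krt19, Krt20 and Krt13 are highest in PVASCs (14.7, 3.22 and 1.91 CPM).

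Krt8 was high in Ab-ASCs alone, where its level per length was close to that of Krt18. Its level was 20.3, 17.0 and 18.9 CPM in the Ab-ASC libraries, 0.214, 0.203 and 0.382 CPM in the PVASC libraries and 0.730, 0.0786 and 0.343 CPM in the Sub-ASC libraries. Every Ab-ASC library lay far above the other 6, and the PVASC and Sub-ASC libraries overlapped. Krt8 was higher in Ab-ASCs than in Sub-ASCs by a log2 fold change of 5.63 (standard error 0.28, edgeR adjusted p = 1.98e-09), or 6.43 without Sub-ASC replicate 1. In PVASCs it was lower than in Ab-ASCs by a log2 fold change of -6.11 (standard error 0.28, edgeR adjusted p = 4.93e-09). PVASCs and Sub-ASCs gave a log2 fold change of -0.48 (standard error 0.56, edgeR adjusted p = 0.461), which became 0.32 without Sub-ASC replicate 1, and 25 against 28 reads in all carry this comparison. The 50-base stretches of the Krt8 transcript are found to 29.7% in other annotated transcripts, those of the pseudogene Krt8-ps and of the overlapping lincRNA Gm36026. How reads with several matches were counted is not given in the sources used here, so the level of Krt8 relative to other keratins is uncertain. Krt8-ps itself had at most 4 reads in any library and Gm36026 had 2 over all 9.

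Krt18, the partner of Krt8, was present in both Ab-ASCs and PVASCs, although Krt8 was nearly absent from PVASCs. It was at 14.9, 12.0 and 13.2 CPM in Ab-ASCs, 7.49, 8.91 and 8.81 CPM in PVASCs and 0.301, 0.393 and 1.33 CPM in Sub-ASCs. The 3 groups did not overlap, and Sub-ASC replicate 3 stood above the other Sub-ASC libraries with 35 reads against 7 and 10. Against Sub-ASCs, the log2 fold change was 4.26 in Ab-ASCs (standard error 0.29, edgeR adjusted p = 3.7e-08) and 3.59 in PVASCs (standard error 0.30, edgeR adjusted p = 2.67e-07). Without Sub-ASC replicate 3 these values were 5.24 and 4.57. PVASCs were below Ab-ASCs by a log2 fold change of -0.67 (standard error 0.19, edgeR adjusted p = 0.0113), and this call was lost without PVASC replicate 1, where the value was -0.60 with an adjusted p of 0.0552.

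Compared per length as FPKM, Krt8 and Krt18 were nearly equal in Ab-ASCs and far apart in PVASCs. The ratio of Krt8 to Krt18 lay between 1.00 and 1.05 in the 3 Ab-ASC libraries and between 0.0167 and 0.0318 in the 3 PVASC libraries. In Sub-ASCs it ran from 0.147 to 1.78, with 2 to 17 reads on Krt8 behind each value. The PVASC range lay below both others, and the Ab-ASC range fell inside that of Sub-ASCs. No test was made on the ratio.

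Krt7, the type II keratin of ducts and mesothelium, had the depot pattern of Krt8 at a lower level. It was at 6.44, 5.25 and 5.31 CPM in Ab-ASCs, 0.306, 0.271 and 0.223 CPM in PVASCs and 0.429, 0.393 and 0.153 CPM in Sub-ASCs. The Ab-ASC libraries stood apart, and those of PVASCs and Sub-ASCs overlapped. The log2 fold change was 4.12 for Ab-ASCs against Sub-ASCs (standard error 0.26, edgeR adjusted p = 2e-08) and -4.38 for PVASCs against Ab-ASCs (standard error 0.26, edgeR adjusted p = 4.01e-08). Between PVASCs and Sub-ASCs it was -0.26 (standard error 0.41, edgeR adjusted p = 0.587). The listed length of Krt7 is 7049 bases, whereas its longest coding transcript has 4094, which raises its mean level in Ab-ASCs from 0.749 to 1.29 FPKM and leaves the fold changes as they are. The antisense gene Gm671, which overlaps Krt7, had 8 reads over all libraries.

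Krt19, a type I keratin that can pair with Krt7 or Krt8, was the most abundant keratin of PVASCs. It was at 14.4, 15.1 and 14.6 CPM in PVASCs, 4.46, 4.76 and 3.97 CPM in Ab-ASCs and 1.33, 1.22 and 0.801 CPM in Sub-ASCs. The groups formed 3 steps without overlap. PVASCs were above Sub-ASCs by a log2 fold change of 3.72 (standard error 0.15, edgeR adjusted p = 1.83e-10). Their distance from Ab-ASCs was 1.74 (standard error 0.12, edgeR adjusted p = 1.66e-07). Ab-ASCs were above Sub-ASCs by 1.98 (standard error 0.17, edgeR adjusted p = 3.8e-07). No 50-base stretch of its transcript is shared with another annotated gene.

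Krt20, otherwise a keratin of intestinal and urothelial surfaces, took the same order of groups as Krt19. It was at 3.03, 3.86 and 2.77 CPM in PVASCs, 0.644, 0.578 and 0.981 CPM in Ab-ASCs and 0.0429, 0.197 and 0.114 CPM in Sub-ASCs. None of the groups overlapped. The log2 fold change of PVASCs was 4.69 relative to Sub-ASCs (standard error 0.36, edgeR adjusted p = 1.4e-07) and 2.11 relative to Ab-ASCs (standard error 0.27, edgeR adjusted p = 3.69e-05). For Ab-ASCs against Sub-ASCs it was 2.57 (standard error 0.48, edgeR adjusted p = 3.53e-04), with 47 and 9 reads in all.

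Krt13, the mucosal keratin, was counted in PVASCs alone. The PVASC libraries held 50, 64 and 64 reads, or 1.53, 2.17 and 2.04 CPM, and the other 6 libraries held 0. Set against a limit of 3 reads in each library, the mean of Krt13 in PVASCs was at least 15.9-fold higher for Sub-ASCs as the comparator. For Ab-ASCs as the comparator the bound was 13.4-fold. The edgeR adjusted p was 8.21e-06 and 2.86e-05 for these comparisons. Its transcript shares no 50-base stretch with another annotated gene, and no other listed gene overlaps it. Ab-ASCs and Sub-ASCs could not be told apart for Krt13, since both were under the limit.

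The basal layer pair was close to absent. Krt5 had 1 read in each of 2 Ab-ASC libraries and 0 in the other 7. Krt14 had 7, 7 and 8 reads in Ab-ASCs, 2, 0 and 0 in PVASCs and 2, 0 and 0 in Sub-ASCs. These reads put Krt14 at 0.348 ± 0.0332 CPM (SD, n = 3) in Ab-ASCs, with every Ab-ASC library above the other 6. The ratio of library-scaled reads was 13.0 against Sub-ASCs (95% Clopper-Pearson interval 3.19 to 114, counting error only) and 16.2 against PVASCs (3.99 to 142). When no low-count filter was applied, edgeR called Krt14 higher in Ab-ASCs than in Sub-ASCs (adjusted p = 0.00276) and than in PVASCs (adjusted p = 0.00132). The transcript of Krt14 shares 14.4% of its 50-base stretches with Krt16 and Krt17, and the transcript of Krt5 shares 12.2%, with Krt6a, Krt6b, Gm5414, Gm5478 and Gm44323.

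**Figure D2:**
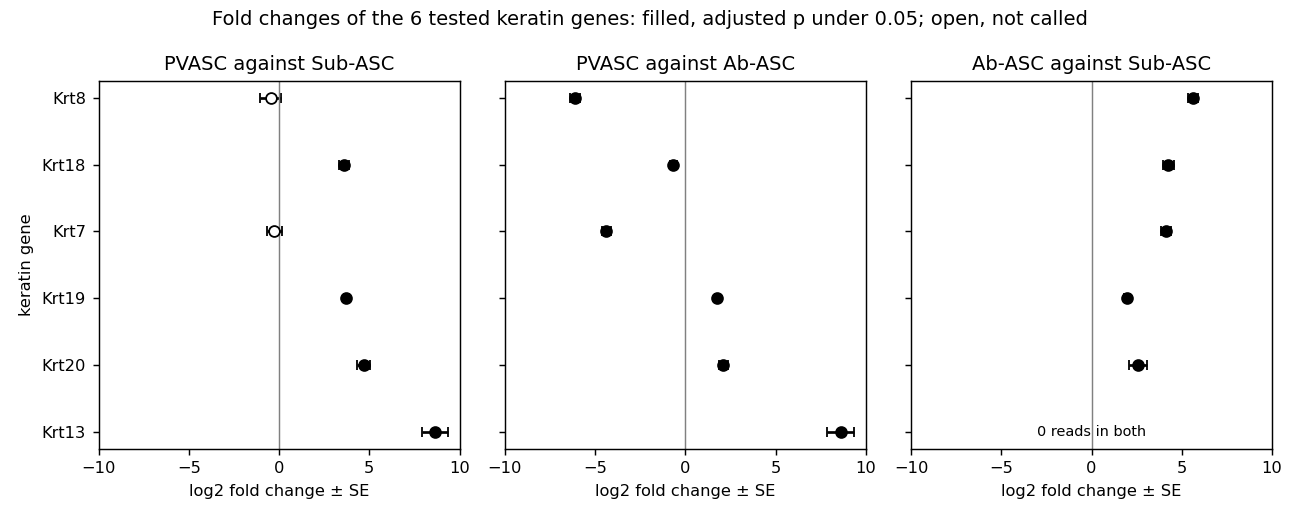
Fitted log2 fold change (horizontal axis) of the 6 tested keratin genes in each comparison, with whiskers of 1 standard error from edgeR's quasi-likelihood fit, filled where the adjusted p is under 0.05. Krt8 and Krt7 are near 0 for PVASCs against Sub-ASCs (-0.48 and -0.26) and lie at -6.11 and -4.38 for PVASCs against Ab-ASCs, where Krt19 and Krt20 lie at 1.74 and 2.11. The fitted value of Krt13 (8.62) rests on edgeR's prior count, since the other groups hold 0 reads.

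Summed over the 8 genes, keratin expression was 1.36 ± 0.237 FPKM in Sub-ASCs, 21.1 ± 1.25 FPKM in Ab-ASCs and 18.2 ± 1.11 FPKM in PVASCs (SD, n = 3). The total of Ab-ASCs was thus close to that of PVASCs, while the composition was not. Type I keratins summed to 11.4 ± 0.611 FPKM and type II keratins to 9.71 ± 0.651 FPKM in Ab-ASCs. In PVASCs type I keratins summed to 18.0 ± 1.10 FPKM and type II keratins to 0.190 ± 0.0506 FPKM. The type II share was 45.3% to 46.4% in the Ab-ASC libraries, 0.805% to 1.35% in the PVASC libraries and 8.50% to 30.3% in the Sub-ASC libraries, where it rests on few reads. The 3 ranges did not overlap. With all 53 protein-coding keratin genes of the table, the mean sum was 4.25 FPKM in Sub-ASCs, 23.3 in Ab-ASCs and 20.7 in PVASCs. In the same order, the 8 genes held 31.9%, 90.8% and 88.1% of it. The type II share over all 53 was 44.2% ± 0.721 in Ab-ASCs, 6.21% ± 0.652 in PVASCs and 37.1% ± 3.49 in Sub-ASCs (SD, n = 3). Most of the type II level of PVASCs and Sub-ASCs then came from Krt80, at 1.02 and 1.14 FPKM. Vimentin was at 740 FPKM in PVASCs, 500 FPKM in Ab-ASCs and 227 FPKM in Sub-ASCs, far above any keratin.

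**Figure D3:**
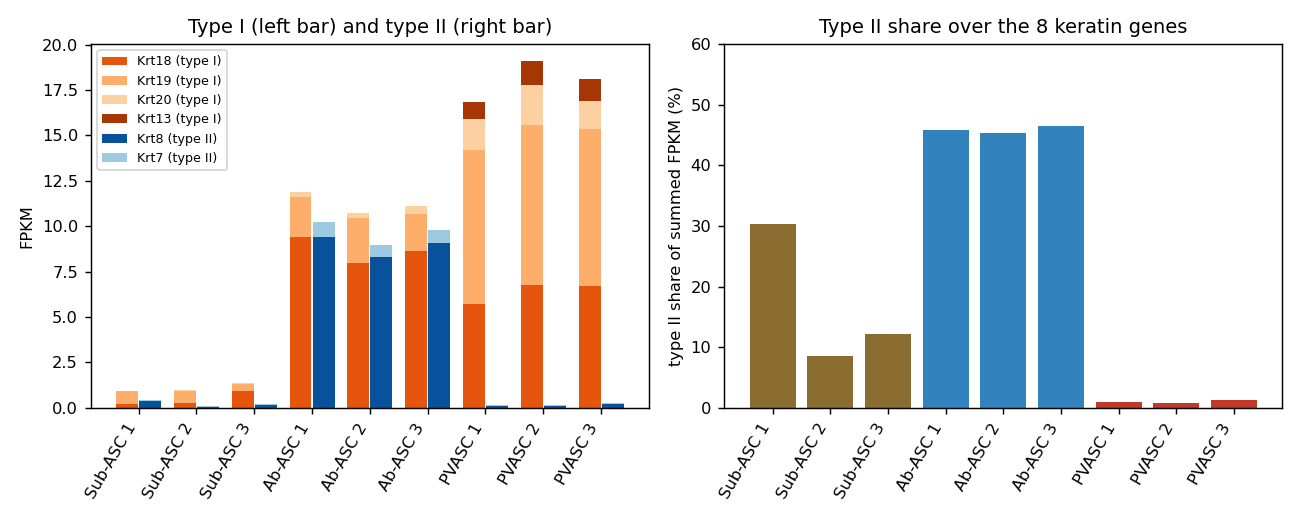
Left, FPKM of the type I keratins (Krt18, Krt19, Krt20 and Krt13, left bar) and type II keratins (Krt8 and Krt7, right bar) in each of the 9 libraries, without Krt5 and Krt14, which are under 0.2 FPKM everywhere. Right, the share of type II keratins in the summed FPKM of all 8 genes, which is 45.3% to 46.4% in Ab-ASCs and at most 1.35% in PVASCs.

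The keratin genes followed here, without the other keratin genes, were ordered by mean FPKM. In Ab-ASCs Krt8 (8.93 ± 0.589, SD, n = 3) and Krt18 (8.69 ± 0.721) led, and their libraries overlapped. Krt19 (2.21 ± 0.217), Krt7 (0.749 ± 0.0698), Krt20 (0.356 ± 0.107) and Krt14 (0.185 ± 0.0139) followed, each below the one before it in all libraries. In PVASCs the order was Krt19 (8.66 ± 0.184), Krt18 (6.39 ± 0.589), Krt20 (1.82 ± 0.318), Krt13 (1.15 ± 0.200), Krt8 (0.149 ± 0.0561) and Krt7 (0.0413 ± 0.00648), again without overlap between neighbours. In Sub-ASCs Krt19 led these genes at 0.589 ± 0.148 FPKM, and every neighbouring pair down the order overlapped. Krt80 and Krt10, which are not among these genes, were higher in Sub-ASCs, with means of 1.14 and 0.884 FPKM. The ratio of Krt19 to Krt18 was 1.29 to 1.49 in PVASCs and 0.231 to 0.306 in Ab-ASCs.

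Of the 45 other protein-coding keratin genes, 21 had 0 reads in all 9 libraries and 15 had 1 to 9 reads in total. Krt80, Krt10 and Krt23 alone had enough reads to be tested. Krt80, a type II keratin of differentiating epithelia, was at 7.48 ± 0.109 CPM in Sub-ASCs, 3.08 ± 0.213 CPM in Ab-ASCs and 5.94 ± 0.101 CPM in PVASCs (SD, n = 3). It was lower in both other groups than in Sub-ASCs (log2 fold change -1.28 for Ab-ASCs, edgeR adjusted p = 2.78e-07, and -0.33 for PVASCs, edgeR adjusted p = 0.00686). Its level in PVASCs was above that in Ab-ASCs by a log2 fold change of 0.95 (edgeR adjusted p = 1.43e-05). Krt23 was lower in PVASCs, at 0.083 CPM, than in Sub-ASCs at 0.520 CPM (edgeR adjusted p = 0.00155) and in Ab-ASCs at 0.467 CPM (edgeR adjusted p = 0.00513). Krt10, a keratin of the upper epidermis, was called in no comparison and had 1.83 to 2.62 CPM in the group means.

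Neighbours in the keratin clusters differed widely in level. Krt15, which lies between Krt13 and Krt19, had 1, 3 and 4 reads in PVASCs and 0 elsewhere, while its neighbours were at 1.91 and 14.7 CPM. Krt14, 54.5 kb beyond Krt19, was at 0.0204 CPM in PVASCs. Krt4, known as the type II partner of Krt13, had 0 reads in PVASCs and Ab-ASCs and 2 in all in Sub-ASCs. Krt1, a keratin of the epidermis, had 5, 9 and 5 reads in Sub-ASCs and 0 in the other 6 libraries. Krt4, Krt15 and Krt1 were chosen for mention after their counts were seen.

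**Figure D4:**
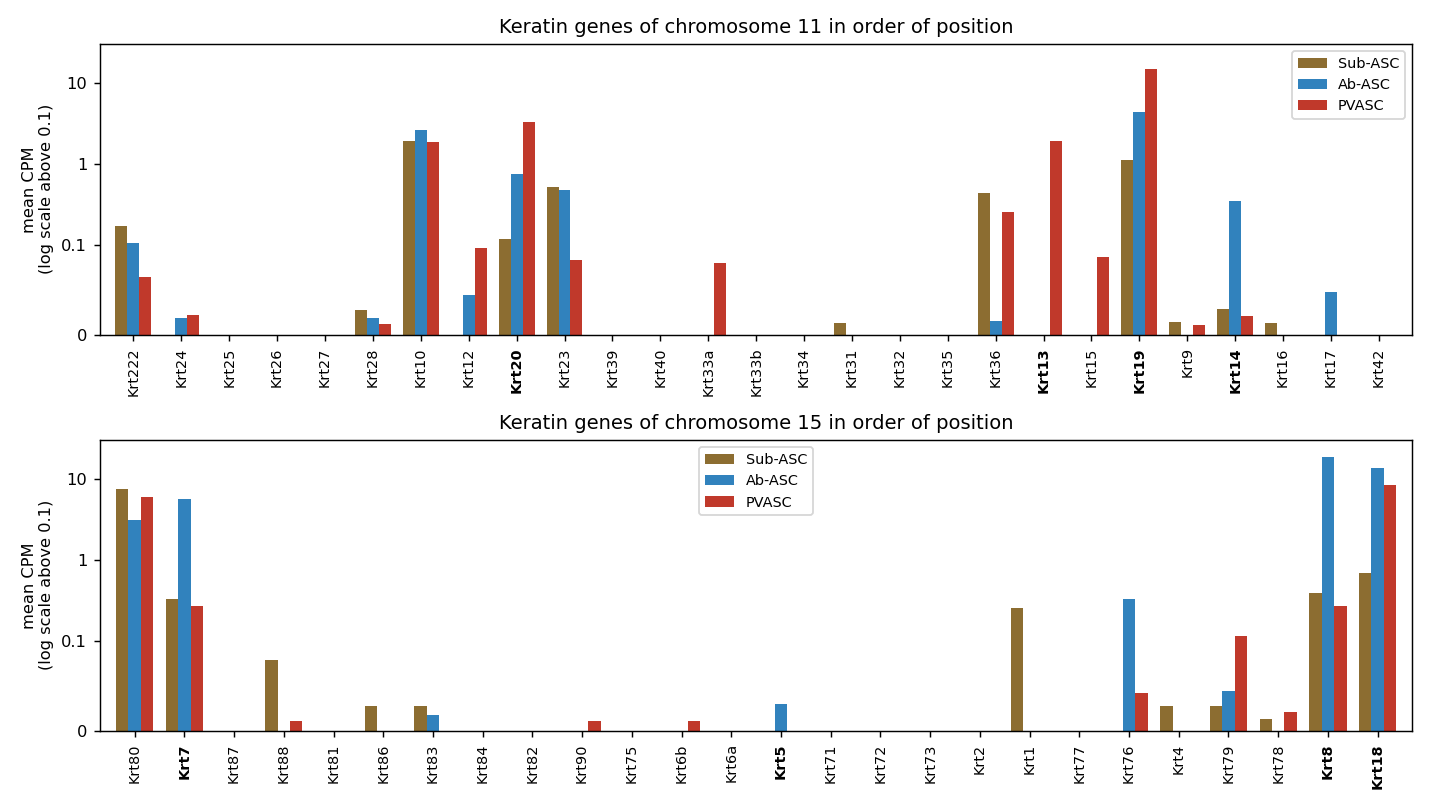
Mean CPM of the 27 keratin genes of chromosome 11 and the 26 of chromosome 15 in order of position (vertical axis linear from 0 to 0.1 and logarithmic above), with the 8 genes described here in bold and a bar for each group. Many positions are empty or near 0, and the high bars are scattered, with Krt20, Krt13 and Krt19 highest for PVASCs on chromosome 11, Krt7, Krt8 and Krt18 highest for Ab-ASCs on chromosome 15, and Krt10 and Krt80 present in all groups.

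The genes nearest in pattern were sought for the 3 keratins with the highest mean FPKM, by the root mean square difference of mean-centred log2(CPM + 0.5) over the 9 libraries among 16525 other tested genes. For Krt8 these included Pitpnm3, with a difference of 0.739 and group means of 20.4 CPM in Ab-ASCs, 2.39 in Sub-ASCs and 1.03 in PVASCs, and the metallothionein Mt3 (0.768). For Krt18 they were Raet1d (0.200), a ligand gene of the NKG2D receptor from a family of close copies, the kinetochore gene Spc24 (0.219) and the acyl-CoA thioesterase Acot7 (0.266). For Krt19 they were the kinase anchor Akap5 (0.177), the RNA-binding protein gene Igf2bp1 (0.188) and the glycine transporter Slc6a5 (0.206). Neither Krt8 nor Krt18 was among the 3 nearest genes of the other.

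Keratin filaments end at desmosomes and hemidesmosomes, and the genes that link to them were measured as a list. Of 19 genes listed, 12 were tested. Against Sub-ASCs, 9 were higher and 3 lower in PVASCs and 8 higher and 2 lower in Ab-ASCs, where 34.7% and 35.7%, and 37% and 38.3%, of all genes tested were higher and lower. The medians were 1.65 and 0.68 on the log2 scale against -0.0106 and -0.0256 for all genes tested. Members such as Pkp1, with 1 read in all in Sub-ASCs, passed the count limit only through the groups in which they were high, so these counts and medians are descriptions. Between PVASCs and Ab-ASCs, 5 were higher and none lower in PVASCs (24.7% and 32.1% of all genes tested), with a median of 0.42 against -0.0552 for all genes tested. Plec (plectin) and Pkp4, the most abundant with Dst and Jup, went from 347 and 13.2 CPM in Sub-ASCs to 660 and 43.9 CPM in PVASCs and 647 and 42.7 CPM in Ab-ASCs. Dst (dystonin) was lower in both, at 438 and 290 CPM against 603 CPM. Pkp2, a plakophilin of the desmosomal plaque, was at 0.400 CPM in Sub-ASCs, 15.4 CPM in Ab-ASCs and 18.3 CPM in PVASCs, and Pkp1 went from 0.0127 to 3.57 and 3.57 CPM. Itga6 and Itgb4, which form the hemidesmosome integrin, were at 94.6 and 8.75 CPM in PVASCs, against 21.5 and 1.78 CPM in Ab-ASCs. Jup, the plaque protein plakoglobin, rose in PVASCs to 54.8 CPM from 18.6 in Sub-ASCs. Ppl, the linker periplakin, went the other way, with 28.7 CPM in Sub-ASCs, 1.17 in PVASCs and 0.288 in Ab-ASCs. Of the desmosomal cadherins, Dsc2 alone was tested. It was at 0.699 CPM in Sub-ASCs, 1.19 in Ab-ASCs and 1.82 in PVASCs and was higher in PVASCs (edgeR adjusted p = 0.000635) and in Ab-ASCs (edgeR adjusted p = 0.0402) than in Sub-ASCs. The plaque protein gene Dsp had 0 to 13 reads per library, Dsg2 0 to 7, and Dsg3 and Dsc1 had 0 in all 9.

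Among the other intermediate filament genes, 11 of 15 were tested. Of these, 10 were higher and 1 lower in PVASCs than in Sub-ASCs, and 8 higher and 1 lower in Ab-ASCs (medians 2.09 and 2.20). Of all genes tested, 70.4% and 75.3% were called in these comparisons, with medians of -0.0106 and -0.0256. Gfap and Nefl passed the count limit only through a group in which they were high, so the counts and medians of this list are descriptions too. Between PVASCs and Ab-ASCs, 3 were higher and 7 lower in PVASCs (median -0.24, with 56.9% of all genes called and a median of -0.0552). Lmna and Lmnb1, the nuclear lamins A/C and B1, were at 255 and 15 CPM in Sub-ASCs, 741 and 115 CPM in Ab-ASCs and 607 and 104 CPM in PVASCs. Nes (nestin) was at 13.0 CPM in Sub-ASCs, 315 in Ab-ASCs and 284 in PVASCs. Nefm and Nefl, neurofilament subunits, were highest in Ab-ASCs at 24.2 and 4.49 CPM, against 3.63 and 0.379 CPM in PVASCs and 0.405 and 0.0254 CPM in Sub-ASCs. Gfap had 22, 30 and 29 reads in PVASCs and at most 3 in any other library.

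Of the 15 epithelial transcription and splicing regulators, 7 were tested. In PVASCs 4 were higher and 3 lower than in Sub-ASCs, and the same counts held in Ab-ASCs (medians 0.74 and 0.36), while between PVASCs and Ab-ASCs 3 were higher and 2 lower (median -0.23). Over all genes tested, 34.7% lay above Sub-ASCs in PVASCs with 35.7% below, and 37% lay above in Ab-ASCs with 38.3% below. Between PVASCs and Ab-ASCs these shares were 24.7% and 32.1%. Trp63 and Ehf passed the count limit only through Sub-ASCs, in which they were high, so the counts and medians of these regulators are descriptions. Klf5 and Esrp2, a zinc finger factor and a splicing regulator of epithelial cells, were at 5.61 and 5.15 CPM in Ab-ASCs, 3.57 and 4.39 CPM in PVASCs and 0.721 and 0.439 CPM in Sub-ASCs. Klf4, the most abundant of the list, was at 42.5 CPM in Sub-ASCs, 54.5 in Ab-ASCs and 71.1 in PVASCs. Ehf, an epithelial ETS factor, had 11, 18 and 15 reads in Sub-ASCs and 0.0864 and 0.0204 CPM in Ab-ASCs and PVASCs. Tfap2a, the gene of the factor AP-2 alpha, was at 1.83 ± 0.449 CPM in PVASCs (SD, n = 3), against 0.456 in Sub-ASCs and 0.119 in Ab-ASCs. Trp63, the master regulator of stratified epithelia, had 21, 25 and 32 reads in Sub-ASCs, 0 in Ab-ASCs and 2, 2 and 3 in PVASCs, so it was highest where Krt5 had 0 reads and Krt14 had 2.

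Mesothelial markers, like the keratin sum and Krt18, were lowest in Sub-ASCs and highest in Ab-ASCs. The other keratins had other patterns, since Krt8 and Krt7 were not called between PVASCs and Sub-ASCs and Krt13, Krt19 and Krt20 were higher in PVASCs than in Ab-ASCs. Of 12 listed, none of them a keratin, 10 were tested, and 9 were higher in PVASCs and 8 in Ab-ASCs than in Sub-ASCs, with none lower (34.7% and 37% of all genes tested were higher). The medians of 4.32 and 6.72 on the log2 scale became 3.98 and 6.43 with Upk1b and Lrrn4, which had 0 reads in Sub-ASCs, set at their bounds. Upk1b, Lrrn4, Msln, Bnc1 and Upk3b had 0 to 5 reads in all in Sub-ASCs and passed the count limit only through the other groups, which partly fixes these counts and medians. Between PVASCs and Ab-ASCs 2 were higher and 8 lower in PVASCs (24.7% and 32.1% of all genes tested), with a median of -1.31 against -0.0552 for all genes tested. Summed over the list, the level was 11.8 to 12.3 FPKM in Sub-ASCs, 276 to 294 in Ab-ASCs and 105 to 107 in PVASCs. Aldh1a2, a retinoic acid synthesis enzyme, made up most of each sum, with means of 8.94, 256 and 90.8 FPKM. Wt1 was at 47.6, 9.91 and 0.600 CPM in Ab-ASCs, PVASCs and Sub-ASCs, Msln at 6.53, 0.443 and 0.0131 CPM, and Upk1b at 15.7, 9.74 and 0 CPM. Upk1b, Lrrn4 and Muc16 had 0 reads in Sub-ASCs, and Calb2 had 0 in both other groups. More cells of a type and more RNA per cell cannot be told apart in bulk libraries.

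Markers of other epithelia were mixed. Over 10 general epithelial markers, the sum was 4.09 to 5.37 FPKM in Ab-ASCs, 1.51 to 1.84 in PVASCs and 2.94 to 3.8 in Sub-ASCs. Of the 6 tested, 3 were higher and 1 lower in Ab-ASCs than in Sub-ASCs, 1 higher and 2 lower in PVASCs than in Sub-ASCs, and none higher and 4 lower in PVASCs than in Ab-ASCs. For this list and those that follow in the paragraph, the background over all genes tested was 37% higher and 38.3% lower in Ab-ASCs, 34.7% higher and 35.7% lower in PVASCs, both relative to Sub-ASCs, and 24.7% higher and 32.1% lower in PVASCs relative to Ab-ASCs. Cldn3, a claudin with the highest mean FPKM of these markers, was highest in Sub-ASCs, at 3.44 CPM against 1.61 in Ab-ASCs and 0.974 in PVASCs. St14, the protease matriptase, was at 0.360 CPM in Sub-ASCs, 0.595 in Ab-ASCs and 0.663 in PVASCs. Spint1 and Cldn4 were highest in Ab-ASCs, at 4.06 and 1.96 CPM, against 0.895 and 0.109 in Sub-ASCs and 0.728 and 0.158 in PVASCs. Cdh1 (E-cadherin) was at 1.62 CPM in Ab-ASCs, 0.130 in Sub-ASCs and 0.0219 in PVASCs, and Epcam had 14, 9 and 16 reads in Ab-ASCs, 0, 1 and 8 in Sub-ASCs and 1, 0 and 1 in PVASCs. Of the 8 keratinocyte markers, which include the keratins Krt1 and Krt10, 4 were tested, 2 higher and 1 lower in Ab-ASCs and 1 higher and 2 lower in PVASCs than in Sub-ASCs, and 1 higher and 2 lower in PVASCs than in Ab-ASCs. They summed to 7.9 to 9.0 FPKM in Ab-ASCs, 3.05 to 3.52 in PVASCs and 3.88 to 5.41 in Sub-ASCs, and Dsg3 had 0 reads in every library. The highest of these was Sbsn (suprabasin), with means of 3.60 FPKM in Sub-ASCs, 4.96 in Ab-ASCs and 1.34 in PVASCs, and the next were Ivl (involucrin), with 2.46 FPKM in Ab-ASCs and 0.795 in PVASCs, and Krt10, with 1.16 and 0.946 FPKM. Ivl had 76, 135 and 113 reads in Ab-ASCs, 43, 40 and 48 in PVASCs and 1 in all in Sub-ASCs, and was higher in Ab-ASCs (edgeR adjusted p = 4.03e-09) and PVASCs (edgeR adjusted p = 5.15e-07) than in Sub-ASCs. Of the 5 urothelial markers, Upk2 had 1 read and Upk3a 0 over all 9 libraries. The sum of the list was 6.74 to 7.65 FPKM in Ab-ASCs, 4.83 to 5.96 in PVASCs and 0.184 to 0.237 in Sub-ASCs. Upk1b, also on the mesothelial list, made up most of it in Ab-ASCs and PVASCs. In Sub-ASCs Upk1b had 0 reads, and Upk1a, at a mean of 0.204 FPKM, made up most of the sum. Of the 2 urothelial markers tested, 1 was higher in PVASCs and in Ab-ASCs than in Sub-ASCs and 1 was lower in PVASCs than in Ab-ASCs, in each case Upk1b. Members such as Cdh1 and Cldn4 passed the count limit only through Ab-ASCs, in which they were high. Trp63 passed it only through Sub-ASCs, and Ivl and Upk1b only through Ab-ASCs and PVASCs. The counts of calls in this paragraph are therefore descriptions.

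Smooth muscle markers had the same order of groups as Krt18, and the other tested keratins did not share it in every comparison. Acta2, Cnn1, Myh11 and Tagln, all 4 of the list, were higher in PVASCs and Ab-ASCs than in Sub-ASCs and lower in PVASCs than in Ab-ASCs. Cnn1, with 2 to 9 reads per library in Sub-ASCs, passed the count limit only through the other groups. Their sum was 28.7 to 31.5 FPKM in Sub-ASCs, 2260 to 2680 in Ab-ASCs and 1580 to 1660 in PVASCs. Acta2 was at 52.7, 4440 and 2510 CPM in Sub-ASCs, Ab-ASCs and PVASCs. Endothelial markers, like Krt19, Krt20 and Krt13, were highest in PVASCs, with sums of 92.8 to 94.1 FPKM, against 28.1 to 30.7 in Sub-ASCs and 8.54 to 9.22 in Ab-ASCs. Krt19 and Krt20 were higher in Ab-ASCs than in Sub-ASCs, the reverse of this order. Of the 4 listed, 3 were higher and 1 lower in PVASCs than in Sub-ASCs, all 4 were higher in PVASCs than in Ab-ASCs, and all 4 were lower in Ab-ASCs than in Sub-ASCs. Haematopoietic markers were highest in Sub-ASCs at 32.5 to 34.8 FPKM, with 24.4 to 28 in Ab-ASCs and 17.3 to 18.5 in PVASCs. Of the 4, 1 was higher and 3 lower in PVASCs and in Ab-ASCs than in Sub-ASCs, and 1 was higher and 2 lower in PVASCs than in Ab-ASCs. Of the 12 stromal markers, 4 were higher and 8 lower in PVASCs and in Ab-ASCs than in Sub-ASCs, and 4 were higher and 7 lower in PVASCs than in Ab-ASCs. The background for these 4 lists was again 34.7% higher and 35.7% lower, 37% higher and 38.3% lower, and 24.7% higher and 32.1% lower, for PVASCs relative to Sub-ASCs, Ab-ASCs relative to Sub-ASCs and PVASCs relative to Ab-ASCs. The part of mesothelial, smooth muscle, endothelial or other epithelial cells in the keratin levels was not tested.

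**Figure D5:**
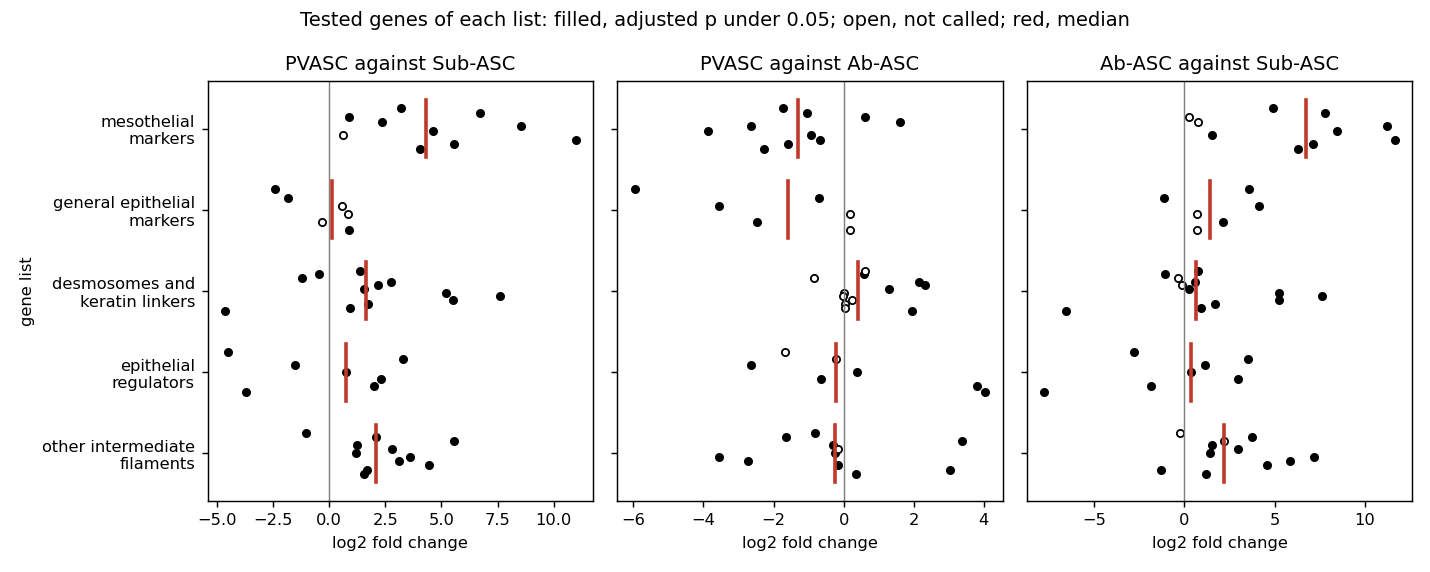
Fitted log2 fold changes (horizontal axis) of the tested genes of 5 lists in each comparison, filled where the adjusted p is under 0.05 and open otherwise, with the median of each list as a red line. Mesothelial markers lie to the right in PVASCs and Ab-ASCs against Sub-ASCs (medians 4.32 and 6.72). General epithelial markers have medians of 0.13 for PVASCs and 1.43 for Ab-ASCs against Sub-ASCs. For PVASCs against Ab-ASCs the medians of these lists are -1.31 (mesothelial) and -1.59 (general epithelial). Values of genes with 0 reads in a group rest on edgeR's prior count.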

How the data were processed

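Bulk RNA libraries of cultured mouse ASCs were analysed, 3 each from subcutaneous, abdominal and perivascular adipose tissue, grouped by their titles. The authors deposited raw counts of reads per gene, without normalization, with the length (in bases; no other unit) and position of each gene. The submitters' processing notes name CASAVA 1.8, Bowtie 0.12.2, featureCounts 1.5.0-p3 and the builds mm8 and mm10, without roles. The listed positions matched GENCODE M21 on GRCm38 for 53499 of 54532 genes. The library kit and counting are not stated to use strand, so reads from antisense overlaps cannot be told apart.

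Counts were filtered by filterByExpr, scaled by TMM and tested by the quasi-likelihood F-test of edgeR 4.0.16 in R 4.3.3, with all 9 libraries in 1 fit and Benjamini-Hochberg adjustment over all 16526 genes tested (threshold 0.05). FPKM was calculated from counts, listed length and library totals. DESeq2 1.42.0, RLE factors, other filters, fits of 2 groups, a replicate block, a minimum size of 1 (log2) for a call and leaving out each library were the alternatives. Transcripts were compared by shared stretches of 50 bases. Named genes were all 8 keratins, the other keratins called, for the filament, linker and regulator lists the 4 genes with the highest mean FPKM and the 2 with the largest called fold change per comparison, and the 3 genes nearest in pattern to each of 3 keratins. Markers and desmosome core genes were picked for mention after their values were seen. Some genes are not reported here. The keratins and lists were chosen with earlier results of these data known. Python 3.11.15, pandas 2.3.3 and matplotlib 3.10.9 were used.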

Additional observations from a re-analysis of the deposited data

How the results depend on the processing

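Of 355 values recomputed under alternatives, 341 kept their direction and side of the threshold, or stayed within 1 SD of the replicates or 1.5 times the count. The counts of keratins called were 4 for PVASCs against Sub-ASCs, 6 for PVASCs against Ab-ASCs, 5 for Ab-ASCs against Sub-ASCs and 6 for any difference. With at least 10 reads required in every library each of these counts fell to 1, because only Krt19 could still be tested. Without a filter and with DESeq2, Krt14 was called in addition, which gave 4, 7, 6 and 7. A minimum size of 1 (log2) for a call gave 5 between PVASCs and Ab-ASCs, without Krt18, and left the counts against Sub-ASCs at 4 and 5. Across fits that each left out a library, the counts were 4, 5 to 6, 5 and 6, with Krt18 between PVASCs and Ab-ASCs as the lost call, and the log2 fold change of Krt8 between PVASCs and Sub-ASCs, never called, ranged from -0.96 to 0.32. Scaling FPKM by TMM moved the summed keratin level to 22.7 FPKM in Ab-ASCs and 16.7 FPKM in PVASCs. With the length of the longest coding transcript, chosen after seeing the data, it was 19.9 FPKM in PVASCs. Leaving out a library gave sums of 20.5 to 21.8 in Ab-ASCs, 17.7 to 18.8 in PVASCs and 1.25 to 1.49 in Sub-ASCs, and type II shares of 45.6% to 46.2%, 0.892% to 1.16% and 10.3% to 21.2%. Under a replicate block in the fit the counts stayed at 4, 6, 5 and 6 and no keratin call changed. Deviations of same-numbered libraries correlated at -0.112 to 0.195, which cannot tell whether these libraries share animals or a batch. Low counts limit Krt5, Krt14 and the values of all 8 keratins in Sub-ASCs.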
